A study of Homo sapiens with 2 samples.

Results

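The annotated miRNA genes that are counted as whole hairpin features, apart from the mature miRNAs themselves, were examined in A549 cells, a human lung adenocarcinoma cell line. They were taken as the features of type miRNA that do not carry a mature miRNA name with a miRBase mature identifier, and 506 of the 5475 features of the count table met this rule. All 506 are hairpin transcripts named by an Ensembl identifier. Small RNAs had been sequenced on the SOLiD platform from cells that spent 24 h at 20% oxygen (normoxia) or at 1.2% oxygen (hypoxia), and each condition has 1 library. Both groups were the same line in the same medium and differed in the labels by oxygen alone. With 1 library per condition there is no replicate check and no test, and the values compare these libraries rather than the conditions. Of the 506 hairpins, 443 had at least 1 count in normoxia and 495 in hypoxia.

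A miRNA is made from a longer transcript that folds back on itself. The nuclease Drosha frees the hairpin, Dicer removes its loop, and 1 of the arms is kept by an Argonaute protein as the mature miRNA, which recognises messenger RNAs mainly through its seed. Reads on a hairpin feature but on neither mature arm can come from loops, flanks, precursors or offset cuts. Some genes annotated as miRNAs lie in transfer RNAs or in repeats such as Alu elements, and reads there can come from those RNAs. Which bases of a hairpin the reads covered is not given in the count table, and neither is the rule that divided reads between a hairpin and its arms.

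The name of the class does not mean that its members lie apart from mature miRNAs. Allowing for 1 more base at each end in the listed mature sequences, 316 hairpins held at least 1 listed mature sequence and 190 held none. A single mature sequence was held by 174 hairpins, a pair by 140, and 3 sequences by 2 hairpins. The hairpins were 50 to 195 bases long, with a median of 86, and 305 were identical to a RefSeq hairpin. By transcript identifier, 414 matched GENCODE version 29, all with a MIR symbol, and the other 92 are named here by their identifier. Of the 414, 241 lay in an intron and 66 in an exon of another gene on the same strand, 26 and 6 did so on the opposite strand, and 75 overlapped no other gene.

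For 6 of the hairpins that the results turn on, the sequences are printed in 2 sets 5′ to 3′ as listed with the counts, with hg19 positions. The first set shows hairpins with well-known mature miRNAs, in which capitals mark the listed mature sequences. MIR210 lies at chr11:568089-568198 on the minus strand, in an intron of MIR210HG. MIR21 lies at chr17:57918627-57918698 on the plus strand, in an exon of VMP1. MIR942 lies at chr1:117637265-117637350 on the plus strand, in an intron of TTF2.
MIR210: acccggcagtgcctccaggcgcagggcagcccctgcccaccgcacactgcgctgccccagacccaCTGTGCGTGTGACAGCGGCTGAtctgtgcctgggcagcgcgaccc
MIR21: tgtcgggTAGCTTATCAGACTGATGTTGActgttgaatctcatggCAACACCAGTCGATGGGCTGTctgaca
MIR942: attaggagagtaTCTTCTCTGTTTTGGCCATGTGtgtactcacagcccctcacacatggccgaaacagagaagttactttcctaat

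The second set shows hairpins of tRNA-Thr sequence, in which capitals mark the longest run shared with a listed tRNA. They are ENST00000577275 at chr19:33667978-33668061, ENST00000579470 at chr17:8090493-8090577 and ENST00000579926 at chr17:62526893-62526975. None of the 3 matched GENCODE, so their strand is not stated.
ENST00000577275: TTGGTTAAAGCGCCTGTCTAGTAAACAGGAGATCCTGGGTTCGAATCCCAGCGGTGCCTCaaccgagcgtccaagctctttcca
ENST00000579470: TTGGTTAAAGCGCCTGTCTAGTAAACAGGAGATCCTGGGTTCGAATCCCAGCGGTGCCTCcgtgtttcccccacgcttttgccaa
ENST00000579926: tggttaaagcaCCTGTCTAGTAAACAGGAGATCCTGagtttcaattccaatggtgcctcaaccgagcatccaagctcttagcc

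The hairpins were a small part of both libraries. They received 10572 of 6449337 counts in normoxia, a share of 0.164% (exact Clopper-Pearson 95% interval 0.161 to 0.167), and 17872 of 13115226 in hypoxia, a share of 0.136% (0.134 to 0.138). Of the counts of type miRNA alone, the shares were 0.234% and 0.207%. Scaled to all counts in the table, the summed hairpins had a log2 ratio of hypoxia over normoxia of -0.27 (exact conditional binomial 95% interval -0.30 to -0.23), and the summed mature miRNAs one of -0.09. These intervals cover counting error only, and PCR copies in these libraries carry no molecular identifiers.

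Most hairpins were counted rarely. The median was 3 counts in normoxia and 5.5 in hypoxia, and 63 and 11 hairpins were at 0, which by the limit of 3 counts allows up to 0.465 and 0.229 CPM (counts scaled to the library total). The 348 hairpins with fewer than 20 counts over both libraries held 7.14% and 8.39% of the hairpin counts. The 10 most abundant took 56.8% of them in normoxia and 49.7% in hypoxia. Counts are per feature and were not divided by length, so an order of hairpins by counts is not an order of levels per length.

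The composition of the abundant hairpins differed between the libraries. In normoxia the most abundant was ENST00000577275, a hairpin that overlaps a tRNA-Thr gene, with 22.3% of the hairpin counts (interval 21.5 to 23.1). In hypoxia it had 7.93%. MIR21, the precursor of the abundant miR-21, took 14.0% and then 15.5%, which made it the most abundant hairpin of the hypoxia library. The next were MIR4301, with 4.65% and 5.66%, and MIR4284, with 4.18% and 4.45%. Beyond these, MIR5096 went from 1.67% of the class to 4.27%, MIR619 from 1.11% to 3.40%, and MIR210 from 0.303% to 2.10%.

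**Figure D1:**
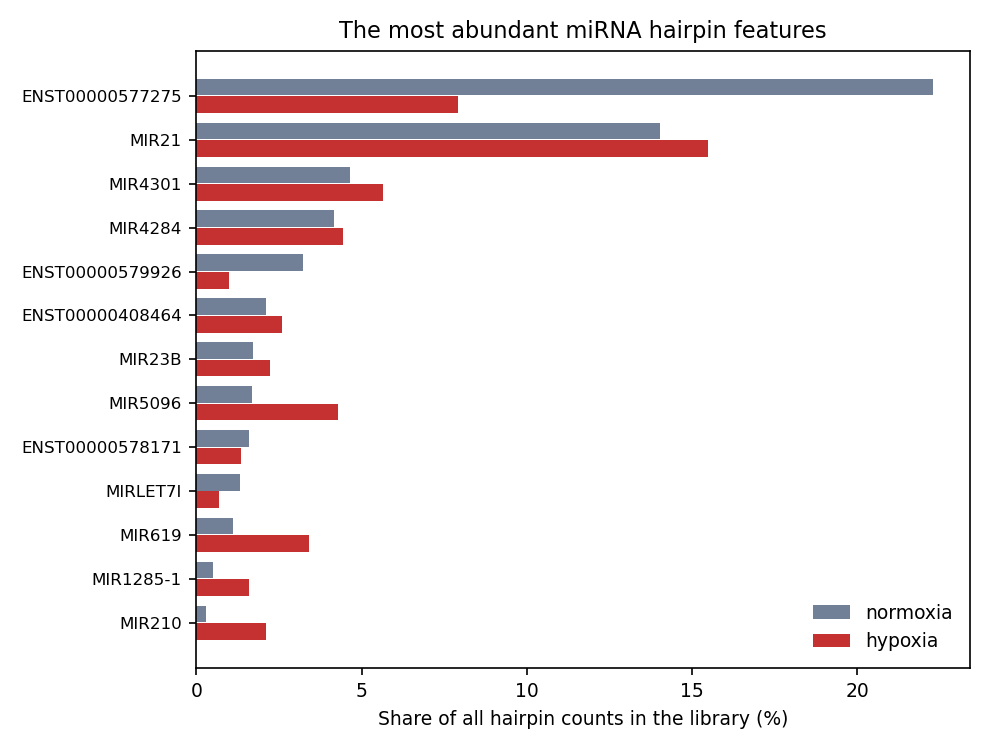
Share of all hairpin counts in the normoxia (grey) and hypoxia (red) libraries, in percent, for the 13 hairpins that are among the 10 most abundant of either library. ENST00000577275 has the longest bar in normoxia at 22.3% and MIR21 in hypoxia at 15.5%.

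For single hairpins, the log2 ratio was computed from CPM with a prior count of 2, and a hairpin was counted as higher or lower when that ratio reached 0.9 or -0.9. The 158 hairpins with at least 20 counts over both libraries had a median log2 ratio of 0.03, with quartiles at -0.49 and 0.54. The median was 0.17 over all 2967 features past that minimum and 0.04 over the 521 mature miRNAs. Of the 158 hairpins, 17 (10.8%) were higher, against 11.8% of all features and 4.99% of mature miRNAs. Another 17 (10.8%) were lower, against 4.35% of all features and 5.76% of mature miRNAs. The share that was higher was thus near that of all features, and the share that was lower was above it. Low counts widen the spread of ratios, and among features with 20 to 100 counts the shares were 11.1% of 117 hairpins higher and 10.3% lower, against 20.7% and 6.05% of 1091 features. The counting interval excluded 0 for 13 of the 17 higher and 16 of the 17 lower hairpins. Without the rule of size, it lay wholly above 0 for 19 of the 158 (12%) and wholly below for 28 (17.7%), against 30.9% and 17.1% of all features, many of which have more counts. When scaled by TMM (trimmed mean of M values) over all features, which shifts each ratio by -0.11, 13 hairpins were higher and 23 lower, so that 36.1% of the hairpins past the rule were higher in place of an even split, while 286 of the 2967 features were higher and 172 lower.

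**Figure D2:**
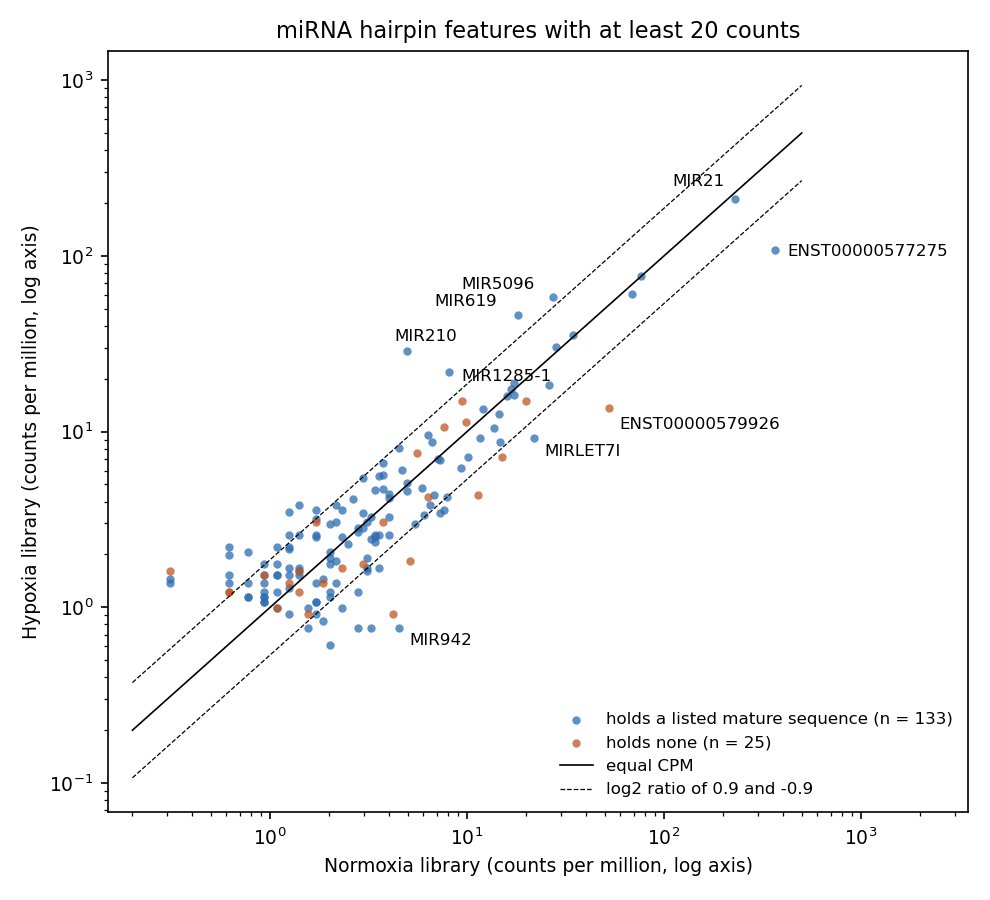
CPM of the 158 hairpins with at least 20 counts in normoxia (x axis) and hypoxia (y axis), both on log axes, in blue for the 133 that hold a listed mature sequence and in orange for the 25 that hold none. Most points lie between the dashed lines at log2 ratios of 0.9 and -0.9, the labelled MIR210, MIR5096, MIR619 and MIR1285-1 lie above them, and ENST00000577275 and ENST00000579926 below.

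Among hairpins with well-known mature miRNAs, MIR210 stood highest. miR-210 is the miRNA most widely known to be induced by hypoxia-inducible factor. The MIR210 hairpin had 32 counts in normoxia and 376 in hypoxia, or 4.96 and 28.7 CPM. Its log2 ratio of 2.48 (counting interval 2.01 to 3.10) was the largest of the 158. The mature miR-210, the capitals of the printed hairpin, had 4307 and 22849 counts, a log2 ratio of 1.38. The hairpin therefore differed more between the libraries than its own mature arm, and made up 0.737% of hairpin and arm counts together in normoxia (0.505 to 1.04) and 1.62% in hypoxia (1.46 to 1.79).

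MIR21 had the most counts of all hairpins over both libraries together, with 1482 in normoxia and 2769 in hypoxia. Its log2 ratio was -0.12 (-0.21 to -0.03), and that of its arms was -0.17, from 3266022 and 5889467 counts. The hairpin was a very small part of that locus, at 0.0454% of hairpin and arm counts in normoxia and 0.0470% in hypoxia. MIR23B, in an intron of C9orf3, had 182 and 398 counts and a log2 ratio of 0.10 (-0.15 to 0.37), which does not differ from 0 beyond counting error.

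MIR942 and MIR15B were at the other end. MIR942 had 29 normoxia counts and 10 hypoxia counts, a log2 ratio of -2.28 (-3.76 to -1.48), the smallest of the 158. Mature miR-942 had 100 and 157 counts, a log2 ratio of -0.37. MIR15B, in an intron of SMC4, is the precursor of miR-15b, a miRNA of the miR-15/16 family that targets cell-cycle and survival genes. It had 21 and 10 counts, a log2 ratio of -1.84 (-3.34 to -0.94), and its arms had 10922 and 15330 counts, a log2 ratio of -0.53. Both hairpins were lower in the hypoxia library by more than their arms, on few counts.

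Other hairpins with large ratios rested on very few reads in normoxia. MIR126, in an intron of EGFL7 and known as the source of an endothelial miRNA, had 2 normoxia counts and 19 hypoxia counts, a log2 ratio of 1.68 (0.17 to 5.37), while its arms were at -0.10. MIR26B, in an intron of CTDSP1, had 4 and 29 counts, a log2 ratio of 1.55 (0.32 to 3.80). ENST00000384827, which holds miR-487a, had 2 and 18 counts, a log2 ratio of 1.62 (0.08 to 5.30). ENST00000408803, which holds no listed mature sequence, had 2 and 21 counts, a log2 ratio of 1.81 (0.34 to 5.51). The lower bounds of these 4 intervals lie near 0, so the sizes of the differences are not fixed at this depth. ENST00000408875, which also holds none, had 27 and 12 counts, a log2 ratio of -1.97 (-3.31 to -1.16).

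**Figure D3:**
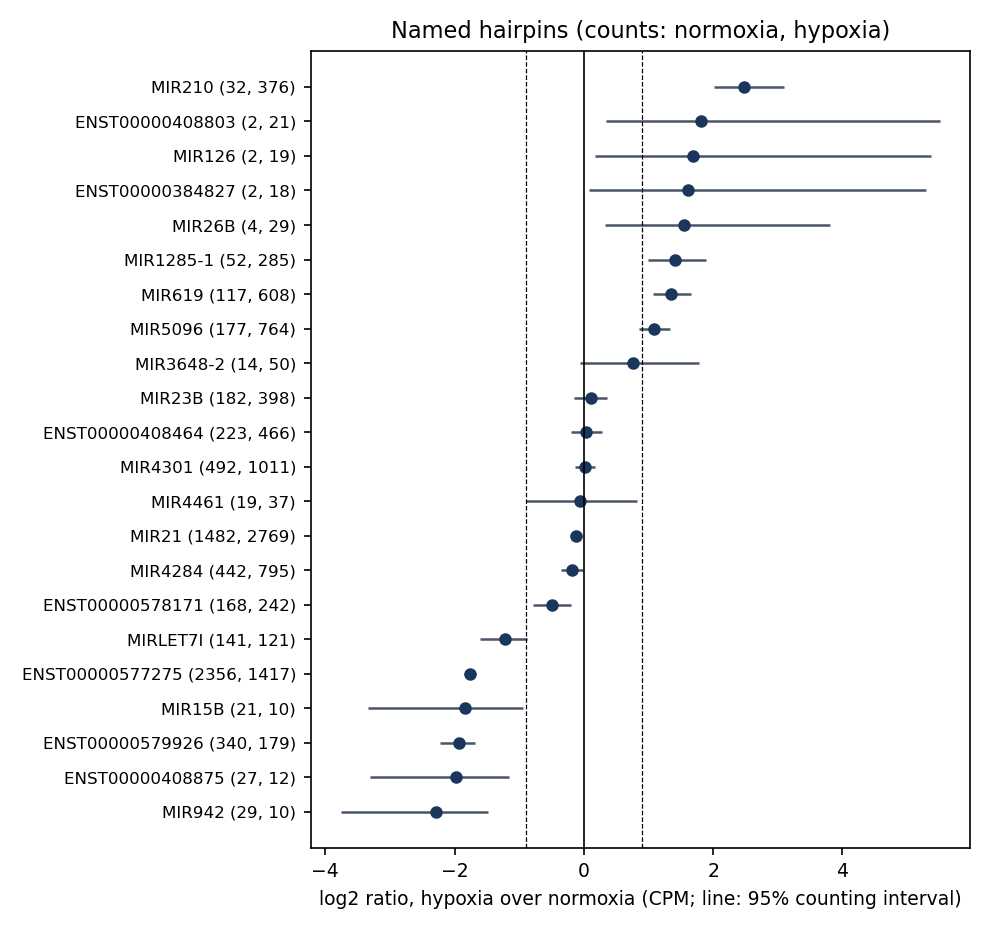
Log2 ratio of hypoxia over normoxia (x axis) for the 22 named hairpins, each with its counts in normoxia and hypoxia in parentheses. Points are ratios from CPM with a prior count of 2, lines are 95% counting intervals, and dashed lines stand at 0.9 and -0.9. MIR210 is the farthest to the right at 2.48 and MIR942 the farthest to the left at -2.28.

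The hairpins of tRNA-Thr sequence were lower in the hypoxia library. A tRNA carries an amino acid to the ribosome, and short fragments of tRNAs and of their precursors are common in small RNA libraries. ENST00000577275 had 2356 normoxia counts and 1417 hypoxia counts, a log2 ratio of -1.76 (-1.85 to -1.66). ENST00000579926 had 340 and 179 counts, a log2 ratio of -1.93 (-2.22 to -1.68). ENST00000579470 had 18 and 10 counts, a log2 ratio of -1.63 (-3.15 to -0.68). All 3 had fewer counts in hypoxia although it was the deeper library, and they were put together after their values were seen.

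The printed sequences show how these hairpins relate. ENST00000577275 shares 59 bases of its position with the gene chr19.tRNA4-ThrAGT and runs 25 bases past the end of it, and ENST00000579470 shares 59 bases with chr17.tRNA8-ThrAGT and runs 26 bases past. With each other they share a run of 60 bases, while ENST00000579926 shares a run of 25 bases with ENST00000577275. At their 3′ ends, ENST00000577275 and ENST00000579926 are also largely alike, while ENST00000579470 has another sequence there. Reads in a shared run cannot be assigned to 1 of them from the sequence alone, so their single counts are uncertain. The tRNA features at these positions had other ratios than the hairpins. The feature chr19.tRNA4-ThrAGT had 104 and 259 counts, a log2 ratio of 0.29, and chr17.tRNA8-ThrAGT had 660 and 1330 counts, a log2 ratio of -0.01. Mature miR-3676-5p, whose listed sequence lies in both ENST00000577275 and ENST00000579470, had 33 and 30 counts, a log2 ratio of -1.09. ENST00000579470 holds a further listed mature sequence, and all that it holds had 90 and 50 counts together.

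These 3 hairpins held much of the difference of the class. Together they had 2714 counts in normoxia and 1606 in hypoxia, 25.7% and 8.99% of the hairpin counts, with a log2 ratio of -1.78 (-1.87 to -1.69). Without them, the other hairpins had 7858 and 16266 counts, or 0.122% and 0.124% of all counts, and the log2 ratio of the sum was 0.03 (-0.01 to 0.06). Without them the direction depended on the scaling, with -0.089 (-0.128 to -0.050) by TMM over all features and 0.12 (0.08 to 0.16) by the total of mature miRNA counts. With them the class was lower in the hypoxia library under each scaling tried, from -0.38 to -0.17.

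Hairpins that overlap tRNA-Ile genes were a smaller group. ENST00000458896, which covers the whole of chr6.tRNA55-IleTAT, had 129 and 195 counts, a log2 ratio of -0.42 (-0.76 to -0.10), and the tRNA feature had 54 and 50 counts, a log2 ratio of -1.09 (-1.72 to -0.55). ENST00000459170, over chr6.tRNA29-IleTAT, had 10 and 9 counts. In all, 4 hairpins overlapped a listed tRNA gene, and 43 shared a run of at least 18 bases with a feature of another small RNA class, mostly misc_RNA (32 hairpins), snRNA (9), tRNA (6) and snoRNA (5). These 43 held 40.7% of the hairpin counts in normoxia and 25.7% in hypoxia.

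Gene names known to mark fragments of other RNAs were looked for among the 414 hairpins with a GENCODE symbol, and few were present. The other 92, with 35.3% and 19.8% of the hairpin counts, could not match a name. No hairpin with a symbol carried a listed name from the Y RNA, vault RNA, snoRNA or snRNA groups. The tRNA group had MIR1260A and MIR1260B, with 8 and 10 counts together. The 8 hairpins that hold miR-720, also a name of that group, have no symbol and had 235 and 496 counts together. MIR4461, known for mitochondrial sequence, had 19 and 37 counts, a log2 ratio of -0.06 (-0.90 to 0.82). MIR3648-2, in the ribosomal RNA spacer group, had 14 and 50 counts, a log2 ratio of 0.76 (-0.07 to 1.78). Neither differed from 0 beyond counting error.

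Among abundant hairpins of late or uncertain annotation, MIR4301 and ENST00000408464 did not differ from 0 beyond counting error, while MIR4284 was slightly lower. MIR4301 shares a run of 18 bases with misc_RNA features, and MIR4284 with a mitochondrial tRNA and a piRNA feature. MIR4301, in an intron of DRD2, had 492 and 1011 counts, a log2 ratio of 0.01 (-0.14 to 0.17), and mature miR-4301 had 4964 and 9371 counts. MIR4284, in an intron of STX1A on the opposite strand, had 442 and 795 counts, a log2 ratio of -0.18 (-0.35 to -0.01), against 106 and 258 counts of its mature sequence. ENST00000408464, 1 of 8 hairpins that hold miR-720, a sequence since recognised as a tRNA fragment, had 223 and 466 counts, a log2 ratio of 0.04 (-0.19 to 0.28). ENST00000578171, which holds miR-4791, was lower, with 168 and 242 counts and a log2 ratio of -0.49 (-0.79 to -0.20).

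The hairpins MIR5096, MIR619 and MIR1285-1, called repeat-rich from background knowledge since repeats were not annotated here, were higher in the hypoxia library. They lie in introns of BMP2K, SSH1 and AC000120.3, each on the strand of that gene. MIR5096 had 177 normoxia counts and 764 hypoxia counts, a log2 ratio of 1.08 (0.85 to 1.33). MIR619 had 117 and 608 counts, a log2 ratio of 1.34 (1.07 to 1.65). MIR1285-1 had 52 and 285 counts, a log2 ratio of 1.41 (1.00 to 1.89). The intervals of these 3 ratios lie wholly above 0, and the trio was put together after its values were seen. Their sum was 346 and 1657 counts, or 3.27% and 9.27% of the hairpin counts, a log2 ratio of 1.24 (1.07 to 1.41).

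Their mature sequences were counted rarely. Mature miR-5096 had 5 and 9 counts, a log2 ratio of -0.14 (-1.91 to 1.75), and mature miR-619 had 1 and 2 counts, so that a difference as large as that of the hairpin was not detectable for either at this depth. The arms of MIR1285-1 had 69 and 143 counts, a log2 ratio of 0.03 (-0.40 to 0.46), below the interval of that hairpin. These arms are not of a single locus, since miR-1285-3p is listed on chr2 and the hairpin on chr7. Hairpins of the miR-1273 family, also known for Alu sequence, were not higher, with 96 and 155 counts in all and a log2 ratio of -0.33 (-0.71 to 0.05). Copies of these sequences elsewhere in the genome were not counted here, and their part in these values was not tested.

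The hairpins of miRNA families (genes of the same number) with at least 3 members past the count minimum were set beside their mature features. The let-7 genes, conserved miRNAs that restrain growth genes and whose precursors are bound by LIN28 proteins in cells that make them, were lower as hairpins. All 10 let-7 hairpins past the minimum had a log2 ratio below 0, against 47.5% of the 158 hairpins and 36.6% of all features, and the interval lay wholly below 0 for 6 of them, against 17.7% of the 158 hairpins and 17.1% of all features. MIRLET7I had 141 and 121 counts, the lowest ratio at -1.23 (-1.61 to -0.88). MIRLET7A1 had 95 and 114 counts, a log2 ratio of -0.75 (-1.17 to -0.35). MIRLET7A3, with 94 and 166 counts, had the highest at -0.20 (-0.58 to 0.18). The interval of MIRLET7A3 includes 0, and those of MIRLET7I and MIRLET7A1 do not.

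In sum the 11 let-7 hairpins had 561 normoxia counts and 690 hypoxia counts, a log2 ratio of -0.73 (-0.89 to -0.56). The 17 mature let-7 features had 71633 and 152485 counts, a log2 ratio of 0.07. That sum was not shared by all loci, since the arms of MIRLET7F1 (0.41) and MIRLET7E (0.25) were above 0 and those of MIRLET7G (-0.61), MIRLET7C (-0.11), MIRLET7I (-0.08), MIRLET7A1 (-0.06) and MIRLET7B (-0.06) below. The arms of MIRLET7I lay on opposite sides of 0, with let-7i-5p at -0.43 (-0.47 to -0.38) and let-7i-3p at 0.21 (0.17 to 0.25). For MIRLET7I alone, the number of hairpin counts per 1000 counts of its arms together was 9.87 in normoxia and 4.40 in hypoxia. The hairpin of miR-98, which belongs to the same seed family under another number, is ENST00000354077 and was not below 0, with 32 and 67 counts and a log2 ratio of 0.04 (-0.59 to 0.70). Paralogous let-7 hairpins and arms can share reads, so values of single members are less certain than the sum.

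The 4 miR-181 hairpins past the minimum were above 0, against 52.5% of the 158 hairpins and 63.4% of all features, from 0.01 for MIR181A2 to 0.80 for MIR181B2, but only that of MIR181B2 had an interval wholly above 0. The family sum was 104 and 282 counts, a log2 ratio of 0.42 (0.09 to 0.75), against 0.00 for the mature features. That mature sum was not shared by all loci. The arms of MIR181B1 and MIR181B2 were at -0.34, on the other side of 0 from their hairpins. Those of MIR181A1 (21589 and 51259 counts) and MIR181A2 (21608 and 51347) were above 0. By TMM over all features 3 of the 4 hairpins were above 0, and the hairpin sum was at 0.30 (-0.03 to 0.64), which includes 0. In the miR-30 family the hairpins did not share a direction. The 6 of them had 203 and 439 counts, a log2 ratio of 0.09 (-0.15 to 0.34), with 4 above 0 and 2 below. The miR-29 hairpins were at 0.22 (-0.30 to 0.76) against -0.36 for their mature features, and the miR-320 hairpins at 0.56 (-0.05 to 1.21) against -0.08.

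**Figure D4:**
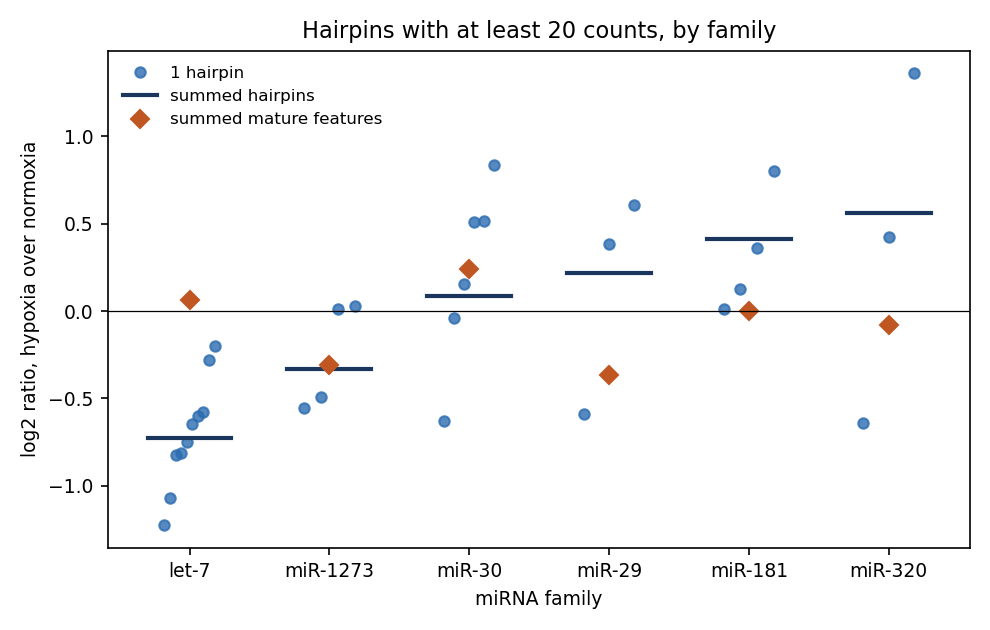
Log2 ratio of hypoxia over normoxia (y axis) by miRNA family (x axis) for each hairpin with at least 20 counts (points), the summed hairpins (bars) and the summed mature features (diamonds). The 10 let-7 points all lie below 0 while the let-7 diamond lies at 0.07.

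The hairpins were also set beside their arms across loci. For 95 hairpins past the minimum whose arms come from a single locus, there were 17.6 hairpin counts per 1000 arm counts in normoxia and 19.8 in hypoxia at the median. MIR22, the hairpin of a very abundant miRNA, had the fewest, at 0.0846 and 0.132. At the other end, 21 hairpins had more counts than their arms in both libraries, among them MIR558 (103 and 209 counts against 1 and 2) and MIR585 (41 and 126 against 5 and 22), 2 loci chosen after their values were seen. Over the 95 loci, Spearman's rho between the log2 ratios of hairpin and arms was 0.28 and Pearson's r 0.31, and r was 0.24 without MIR210. Both ratios come from the same pair of libraries and scaling, and loci are not replicates. The sign was shared by 59 of the 95. The arms had no count minimum there, and over the 80 loci whose arms also had at least 20 counts, a limit chosen after seeing the data, rho was 0.35 and r 0.43 (0.34 without MIR210), with 52 of 80 sharing the sign.

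The hairpins past the rule of size were set beside their arms. Among the higher hairpins, 12 had arms of a single locus, and the arms passed the same rule of size for 1 of them, MIR210. The arms of these 12 ranged from -0.25 to 1.38, and 4 of them had fewer than 20 counts over both libraries. Among the lower hairpins, 9 had such arms, which passed the rule for 2, MIR33B and MIR1307. Of all mature miRNAs past the minimum, 4.99% were higher and 5.76% lower by that rule. MIR33B, in an intron of the lipid regulator SREBF1, had 13 and 8 counts against 52 and 54 for its arms, log2 ratios of -1.45 and -0.94. MIR1307 had 15 and 13 counts against 186 and 188 for its arms, and its own log2 ratio was -1.08.

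**Figure D5:**
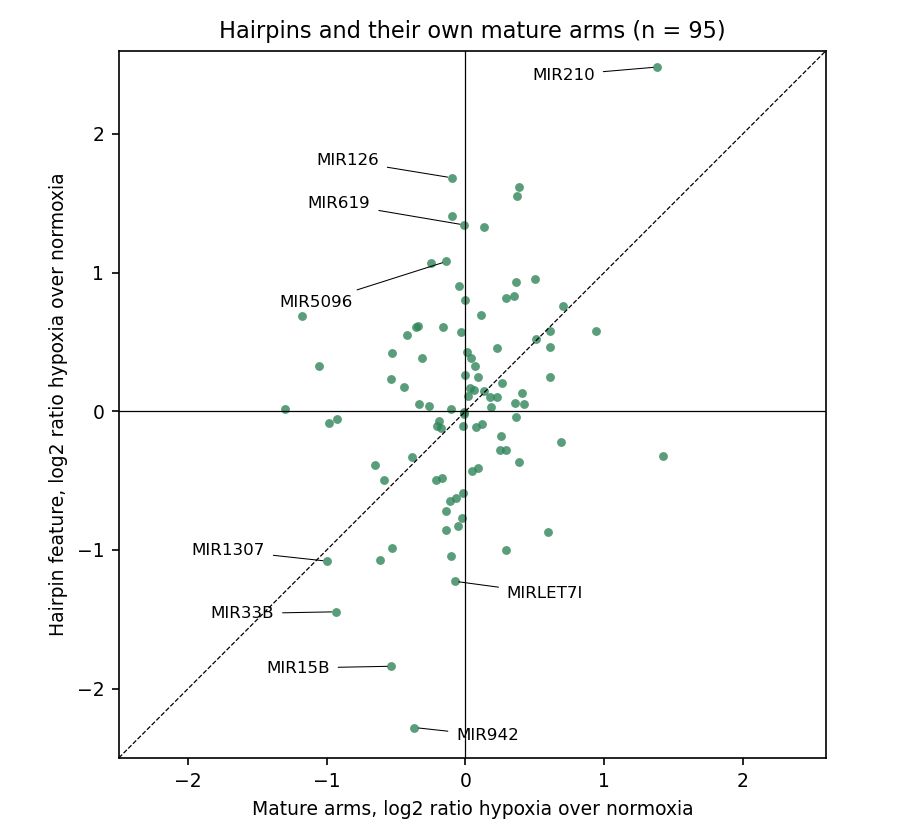
Log2 ratio of hypoxia over normoxia of the mature arms (x axis) and of the hairpin feature (y axis) for 95 loci, with a dashed line where both are equal. MIR210 lies at the upper right with 1.38 for its arm and 2.48 for the hairpin, while MIR942, MIR15B, MIR619 and MIR5096 have large hairpin ratios and arms between -0.53 and -0.01.

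Hairpins that hold a listed mature sequence gave most of the counts, with 9159 in normoxia and 15746 in hypoxia, or 86.6% and 88.1% of the class, and 16 of the 133 past the minimum were higher and 12 lower, where 11.8% of all features were higher and 4.35% lower. The hairpins that hold none had 1413 and 2126 counts, and of the 25 past the minimum 1 was higher and 5 lower. MIR3908 was the most abundant lower hairpin of these with a MIR symbol, at 73 and 57 counts, a log2 ratio of -1.34 (-1.91 to -0.86), and ENST00000516775 was on the other side at 61 and 197 counts, a log2 ratio of 0.66 (0.25 to 1.11). Both were picked after their values were seen.

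As a check of the cells, miR-21-5p was abundant, and the epithelial markers differed widely, with miR-200b-3p at 616 and 711 CPM, miR-200c-3p at 16.9 and 16.2 and miR-141-3p at 26.0 and 16.7. Of the markers of other cell types, miR-451a was at 12.7 and 14.6 CPM, miR-486-5p at 16.6 and 17.2 and the endothelial miR-126-3p at 125 and 124, while the leukocyte miR-142-3p had 5 and 6 counts and the muscle miR-133a-3p 0 and 18. The markers miR-144-3p, miR-223-3p and miR-1-3p are not listed. Their part in the hairpin values was not tested.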

How the data were processed

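Small RNAs from 1 normoxia and 1 hypoxia library of A549 cells were ligated, reverse transcribed, amplified and size-selected by the authors for SOLiD sequencing. The table that the authors deposited holds raw counts, not normalized, by feature, with a sequence and a position for each. The build is hg19 by the submitters' processing notes. For SOLiD data the methods name LifeScope with its small RNA pipeline and miRBase annotation without naming this experiment, and the sources used here do not state how reads were divided between overlapping features. The smallest total of a listed feature was 3 counts.

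Counts were scaled by all counts in the table, 6449337 in normoxia and 13115226 in hypoxia. Log2 ratios were computed from CPM with a prior count of 2, and their exact conditional binomial intervals from counts without it. Shares have exact Clopper-Pearson intervals. Both are at 95% and cover counting error only. No test was made, as there is 1 library per condition.

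The named hairpins were the 10 with the most counts in each library, the 5 largest and 5 smallest log2 ratios past 20 counts whose interval excludes 0, and those of the lists of names of other RNA classes (Y RNA, vault RNA, tRNA, mitochondrial, ribosomal, snoRNA and snRNA) past 20 counts. Others are named as examples of a group. The sequences of some hairpins are not reported here. The members, lists and groups were chosen with earlier results of these data known.

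A hairpin was said to hold a mature sequence when the listed mature sequence without its outer base at each end was found in it, since 653 of 687 mature features matched by name listed 1 more base at each end than RefSeq. For 9 of the 859 mature features the table lists 1 letter only, and these were left out of the matching. Symbols, strands and host genes come from GENCODE version 29 by transcript identifier, without its coordinates. Python 3.11.15 with pandas 2.3.3, numpy 2.4.6 and scipy 1.17.1 and R 4.3.3 with edgeR 4.0.16 and DESeq2 1.42.0, for scaling factors only, were used, and the calculations were tested on simulated data. The alternatives were other scalings, thinning of the hypoxia library, another prior count, other count minimums, another threshold, other denominators and the class without some members.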

Additional observations from a re-analysis of the deposited data

How the results depend on the processing

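No paired analysis was possible because there was only 1 library of each kind, so that none could be left out either. The alternatives without the tRNA-Thr hairpins and without hairpins that share a run of 18 bases with another class were chosen after seeing the data, as was the repeat of the let-7 and miR-181 results and of these sums under each scaling.

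The log2 ratio of the summed hairpins, -0.27, was -0.17 when scaled by mature miRNA counts, -0.38 by TMM over all features and -0.38 by the total without the 10 most abundant features. The 9 hairpins taken as of other small RNA classes overlap a tRNA gene or carry a listed name. Hairpins without a GENCODE symbol could enter only by overlap, so those that hold miR-720 stayed in the class. The log2 ratio was -0.014 without these 9, 0.026 without the 3 of tRNA-Thr sequence and 0.058 without the 43 that share a run. The last of these has an interval wholly above 0 (0.015 to 0.102). By TMM over all features the values without the tRNA-Thr hairpins and without the 43 were -0.089 and -0.057, and by the total without the most abundant features -0.088 and -0.056, so that neither direction is fixed. The share of all counts was 0.124% in normoxia and 0.123% in hypoxia without the hairpins of other classes, 0.122% and 0.124% without those of tRNA-Thr sequence, 0.127% and 0.115% without the most abundant hairpin of each library, and 0.234% and 0.207% of type miRNA counts. Without other classes, MIR21 was the most abundant hairpin in both libraries, with 18.5% and 17.2%.

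The median log2 ratio of 0.03 was 0.12 when scaled by mature miRNA counts, -0.076 by TMM over all features, -0.075 by the total without the most abundant features, -0.045 with the hypoxia library thinned, -0.010 with no count minimum and -0.0031 both with a minimum of 50 and with a mean log2 CPM above 3. Its sign is therefore not fixed. In place of 17 higher and 17 lower hairpins there were 95 and 69 with no minimum, 7 and 8 with a minimum of 50, and 4 and 4 with a mean log2 CPM above 3, as 506, 81 and 29 hairpins were then considered.

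Of the 22 named hairpins, MIR21 and ENST00000577275 left their counting interval under 3 scalings (-0.028 to -0.24 and -1.66 to -1.87), and no sign of the named ratios reversed beyond its interval. The 10 let-7 hairpins past the minimum were below 0 under each scaling, the lower prior count and thinning. Depth limits most hairpins, since 348 of 506 had fewer than 20 counts. No cause of these changes was tested beyond the members left out and the number of hairpins considered.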

Other observations

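Hairpins within 10 kb of each other were summed as clusters with at least 3 members, since clustered miRNAs can be cut from 1 transcript. Of 11 clusters, 9 had a counting interval that includes 0 and 2 had one below 0. The largest, 13 hairpins at chr14:101489662-101528476, had 44 normoxia counts and 120 hypoxia counts, a log2 ratio of 0.42 (-0.09 to 0.96). The 6 hairpins from MIR17 to MIR92A1 at chr13:92002859-92003647 had 40 and 75 counts, a log2 ratio of -0.12 (-0.69 to 0.47). The MIR25, MIR93 and MIR106B hairpins at chr7:99691183-99691697 had 37 and 63 counts, a log2 ratio of -0.26 (-0.86 to 0.37). The pair with an interval below 0 both hold let-7 hairpins, which are already part of the let-7 sum and so no separate observation. Another cluster with a let-7 hairpin, MIR99B, MIRLET7E and MIR125A at chr19:52195865-52196592, had an interval that includes 0. It had 159 and 288 counts, a log2 ratio of -0.17 (-0.45 to 0.12). The cluster of MIRLET7A3, MIR4763 and MIRLET7B at chr22:46508629-46509648 had 136 and 218 counts, a log2 ratio of -0.34 (-0.66 to -0.02). The cluster of MIRLET7A1, MIRLET7F1 and MIRLET7D at chr9:96938234-96941202 had 162 and 202 counts, a log2 ratio of -0.71 (-1.01 to -0.40).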
